A study of Arabidopsis thaliana with 9 samples.

Results

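Inflorescence stems of the lignin mutant ccr-1 were compared directly with stems of an HCT-RNAi line, gene by gene, over all 22746 non-control probe sets of an Affymetrix ATH1 array. Such a probe set is a group of short oligonucleotides that together report the level of 1 transcript. The 3 arrays labelled ccr-1 and the 3 arrays labelled HCT-RNAi were taken, 6 of the 9 arrays in the series, and 3 wild-type (WT) arrays served as a common point of reference. The ccr-1 plants carry a loss-of-function mutation in the cinnamoyl-CoA reductase gene CCR1, the HCT-RNAi plants carry an RNA interference construct against HCT, and WT plants carry neither. All 3 groups were Arabidopsis thaliana of ecotype Columbia-0, aged 1.5 months, raised under a photoperiod of 16 h light to 8 h dark, and 1.5 µg of total stem RNA went onto each array. The promoter of the RNAi construct, the number of independent lines behind it, the position of the ccr-1 lesion, any pooling of plants and the hour of harvest were not stated in the labels. Whether replicate arrays hold separate plants is also unstated, so p-values reflect only array-to-array spread, which may be technical.

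Lignin is built from monolignols, alcohols that are made from phenylalanine and oxidised into a polymer in the walls of vessels and fibres. HCT (hydroxycinnamoyl-CoA:shikimate hydroxycinnamoyl transferase) works upstream, where the pathway leaves p-coumaroyl-CoA towards caffeoyl and guaiacyl units. CCR1 works downstream, reducing feruloyl-CoA and related esters in the first step that serves monolignols alone. Plants that lack either enzyme are known for weak, collapsed xylem vessels and short stems, and p-coumaroyl-CoA is also the starting point of flavonoids and anthocyanins.

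Correlations across probe sets were 0.997 to 0.999 between replicates and 0.956 to 0.960 between ccr-1 and HCT-RNAi arrays. The median standard deviation (SD) between replicates was 0.08 in ccr-1 and 0.07 in HCT-RNAi on the log2 scale. The actin signal from the 3' end exceeded that from the 5' end by 3.86 ± 0.04 in ccr-1, 4.36 ± 0.015 in HCT-RNAi and 3.98 ± 0.06 in WT on the log2 scale (SD, n = 3), a measure that grows as RNA is shortened. Its part in the differences below was not tested.

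With limma and Benjamini-Hochberg adjustment, 13406 probe sets (58.9%) were called between ccr-1 and HCT-RNAi at an adjusted p under 0.05. Of all probe sets, 5773 (25.4%) were higher and 7633 (33.6%) lower in ccr-1, so that 43.1% of the calls were higher, and after median centring of the arrays the calls divided into 7510 higher and 6458 lower, or 53.8% higher. At least a 2-fold difference was found for 1091 higher (4.8%) and 676 lower (2.97%), and the authors' deposited table has 1091 and 675 probe sets in its up and down categories for the same comparison. The median log2 difference over all probe sets was -0.01, with a median standard error of 0.07. The arrays of the 2 lines did not overlap for 63% of probe sets, with ccr-1 above for 27.7% and below for 35.4%. Large differences ran mostly upward: 296 probe sets were at least 4-fold higher and 54 at least 4-fold lower in ccr-1, and 57 were at least 16-fold higher and 2 at least 16-fold lower.

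The members of the 36 gene lists used below were chosen with earlier results of these data known. The lists have 528 entries, of which 332 could be named on the array. Members of a list or family called measured below are only those that could be named. Probe sets that the platform annotation does not list were named only if the authors' table held them, so unchanged members may be missing. The authors' table, whose probe sets were chosen by fold change on these arrays, holds 297 of the named entries. Within that selection 90% of probe sets were called, 53.3% higher and 36.7% lower in ccr-1 (median 0.30). The count of called members in a list is to be read against these shares, which also varied with gene length (last paragraph). Every difference below is ccr-1 minus HCT-RNAi on the log2 scale, ± the standard error of the fit with 3 arrays in each line, unless WT is named.

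**Figure D1:**
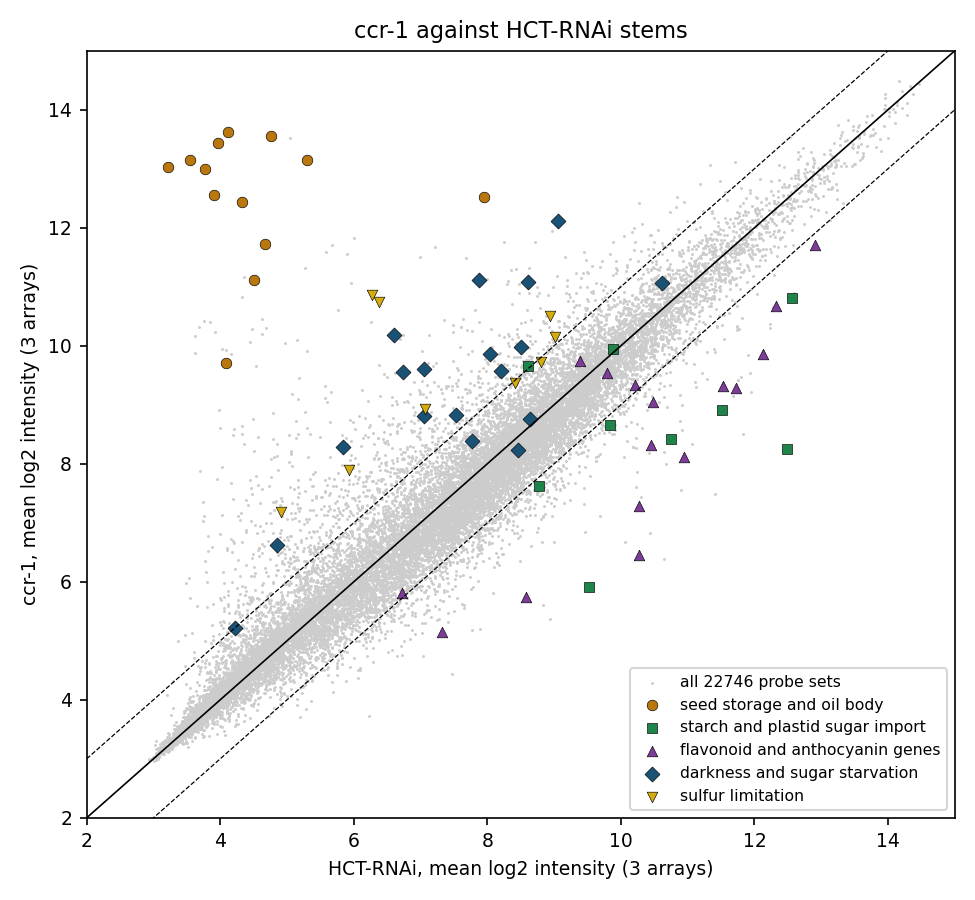
Mean log2 intensity of each of 22746 probe sets in ccr-1 (vertical axis, 3 arrays) and in HCT-RNAi (horizontal axis, 3 arrays). Dashed lines mark 2-fold differences, and coloured symbols mark members of 5 gene lists: seed storage genes stand far above the lines, most starvation and sulfur genes stand above, and most starch and flavonoid genes stand below.

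HCT (AT5G48930) had log2 intensities of 11.97, 11.94 and 11.94 in ccr-1, 9.00, 9.00 and 8.90 in HCT-RNAi and 12.43, 12.54 and 12.52 in WT. Its signal was 7.89-fold higher in ccr-1 (2.98 ± 0.05, limma adjusted p = 6.07e-13). CCR1 (AT1G15950) had 10.01, 10.17 and 10.02 in ccr-1, 11.12, 11.15 and 11.07 in HCT-RNAi and 11.87, 11.85 and 11.90 in WT. Its signal was 2.06-fold lower in ccr-1 (-1.05 ± 0.06, limma adjusted p = 1.59e-08). Each target was lowest on the 3 arrays of its own line, below WT and the other line, and no groups overlapped for either gene. No source used here says whether the CCR1 probe set lies in the part of the gene altered in ccr-1, so it checks that label only in part.

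**Figure D2:**
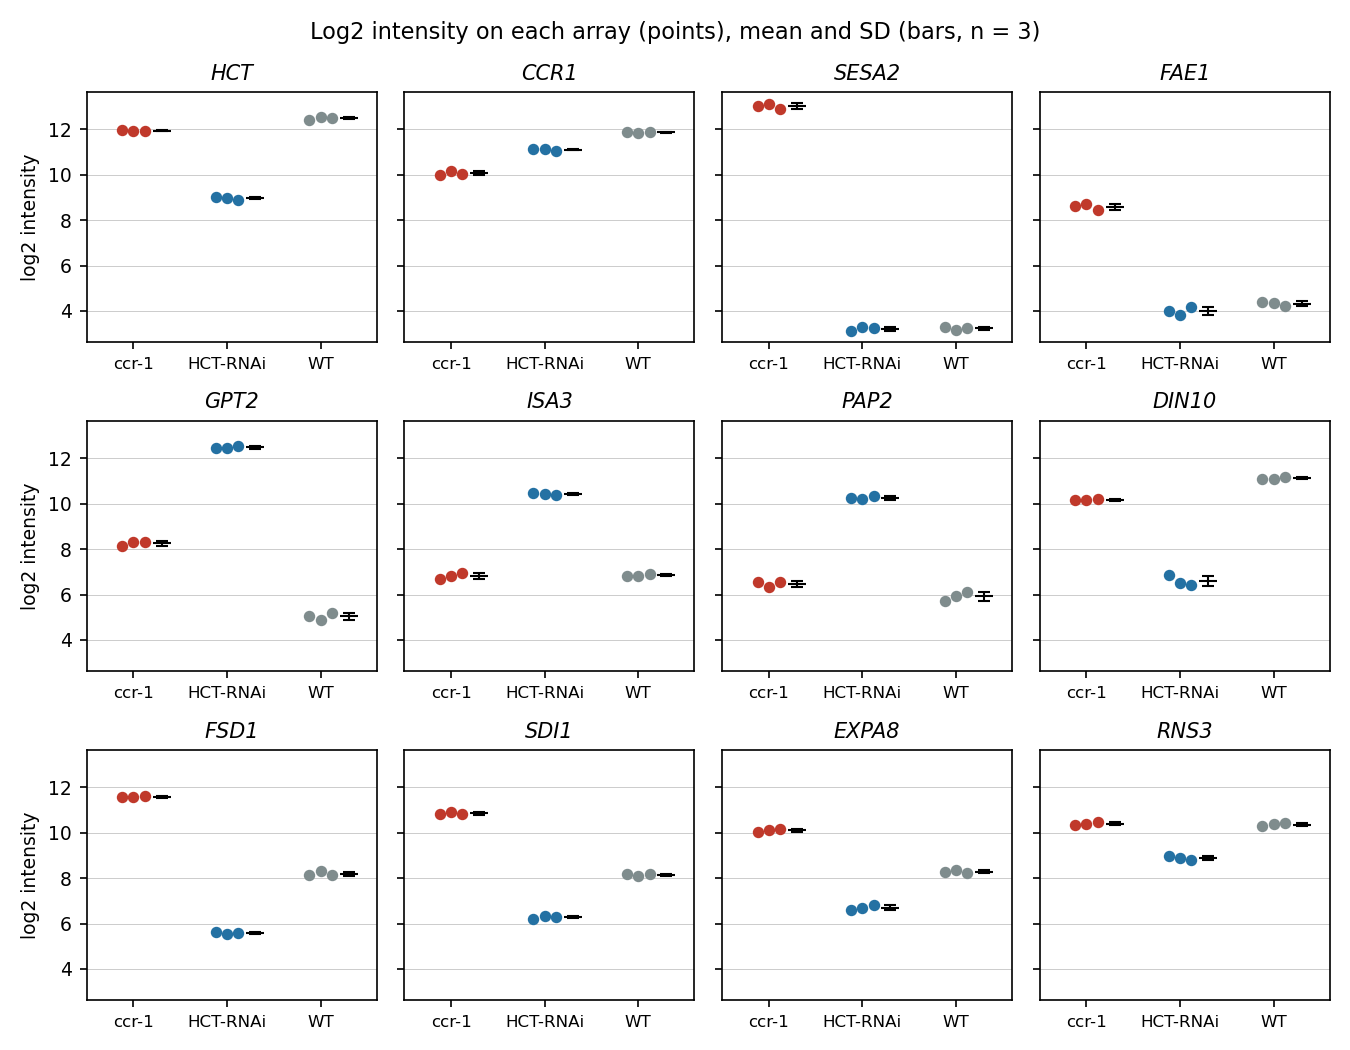
Log2 intensity of 12 genes on each array of ccr-1, HCT-RNAi and WT (points), with the mean and SD of 3 arrays per group. HCT is lowest in HCT-RNAi and CCR1 lowest in ccr-1, the seed genes SESA2 and FAE1 are high in ccr-1 alone, and FSD1, SDI1 and EXPA8 lie above WT in ccr-1 and below WT in HCT-RNAi.

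The largest rises in ccr-1 were mostly in genes of maturing seeds, which store protein and oil for the seedling. Of the 20 named genes with the largest rises, 11 belong to the seed storage and oil body list, and all 13 measured members of that list were at least 2-fold higher in ccr-1 (median 8.64). The list was chosen with earlier results of these data known, so both counts are descriptions only. SESA2 (AT4G27150), an albumin storage protein gene, had 13.05, 13.14 and 12.90 in ccr-1, 3.12, 3.29 and 3.23 in HCT-RNAi and a mean of 3.24 ± 0.06 in WT (SD, n = 3), a measured difference of 9.82 ± 0.07 (limma adjusted p = 1.18e-16). All 3 ccr-1 arrays were high, while HCT-RNAi and WT arrays were low and overlapped each other. SESA2 and CRU2 were each called present on only 1 of the 3 HCT-RNAi arrays, so the sizes of their differences rest on HCT-RNAi signals mostly not called present. CRU2 (AT1G03880), a cruciferin storage globulin gene, had 13.61, 13.59 and 13.66 in ccr-1 and 4.09, 4.22 and 4.04 in HCT-RNAi (9.50 ± 0.07, limma adjusted p = 1.18e-16). OLEO1 (AT4G25140), an oleosin that coats oil bodies, had 13.01, 13.16 and 13.26 in ccr-1 and 5.37, 5.23 and 5.29 in HCT-RNAi (7.85 ± 0.08, limma adjusted p = 1.7e-15). OLEO4 was the least different member, 4.57 ± 0.07 higher. No member's arrays overlapped between the lines.

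Where the authors' detection calls were absent on all 3 arrays of HCT-RNAi, the fold difference is a lower bound, taken against the higher of the probe set's own signal and the lowest signal called present on each array. On that basis CRA1, another cruciferin gene, was at least 704-fold higher in ccr-1, SESA1 at least 399-fold, OLEO2 at least 275-fold and the caleosin gene CLO1 at least 49.2-fold. The same holds for 9 of the 20 largest rises. Outside the list these included the embryo-specific gene ATS3, at least 112-fold higher, the cytochrome P450 gene CYP71B31, at least 99.6-fold, and AT2G28490, at least 101-fold. The oleosin gene OLEO3 (6.04 ± 0.07) and the extensin-like gene EPR1 (6.05 ± 0.10), the second called present on 1 of the 3 HCT-RNAi arrays, were also among the 20.

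Regulators of the embryo and genes of the seed coat moved less uniformly: of 8 measured, 6 were higher and 2 lower, with a median of 0.55. FAE1 (AT4G34520), the condensing enzyme for very long fatty acids of seed oil, had 8.63, 8.72 and 8.45 in ccr-1, 3.99, 3.83 and 4.15 in HCT-RNAi and 4.41, 4.34 and 4.22 in WT (4.61 ± 0.09, limma adjusted p = 1.12e-12). Its ccr-1 arrays stood alone, above both other groups. L1L, a subunit of an embryo transcription factor, was 2.02 ± 0.16 higher with ccr-1 arrays spread over 6.18, 7.07 and 6.69, and was called present on 1 of the 3 HCT-RNAi arrays. BAN, a seed coat proanthocyanidin gene, was 0.96 ± 0.10 higher, whereas TTG2, a seed coat and trichome regulator, was -1.46 ± 0.06 and the oil synthesis gene DGAT1 -0.47 ± 0.07 in ccr-1.

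Floral organ identity genes encode MADS-box factors that specify sepals, petals, stamens and carpels, and 10 of 12 measured were higher in ccr-1, including 9 that passed 2-fold (median 1.42). STK, which marks ovules, had 6.88, 6.41 and 6.72 in ccr-1, 4.43, 4.19 and 4.37 in HCT-RNAi and 3.69, 3.80 and 3.54 in WT (2.34 ± 0.11, limma adjusted p = 3.05e-09). PI, needed for petals and stamens, had 8.96, 9.02 and 8.93 in ccr-1, 6.94, 6.83 and 6.91 in HCT-RNAi and 5.79, 5.73 and 5.72 in WT (2.08 ± 0.05, limma adjusted p = 1.28e-11). Both lines lay above WT for these genes, and ccr-1 lay above HCT-RNAi. SHP2 (1.78 ± 0.06), SEP2 (1.65 ± 0.11) and AG (1.49 ± 0.10) followed, while FUL had a difference of -0.05 ± 0.06 that did not pass (limma adjusted p = 0.521). Of 6 measured genes of anthers and pollen, 4 were higher and 1 lower, with AGP6 at 1.66 ± 0.06, AGP11 at 1.43 ± 0.11 and the tapetum gene A9 at -0.43 ± 0.10.

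The summed linear intensity of the 13 seed storage genes was 92515 to 96083 on ccr-1 arrays, 478 to 488 on HCT-RNAi arrays and 427 to 459 on WT arrays. For the 12 floral genes the sums were 4940.1 to 5153 in ccr-1, 2972 to 3134 in HCT-RNAi and 1202 to 1236 in WT. For the 6 anther and pollen genes they were 1607 to 1791 in ccr-1, 882 to 1026 in HCT-RNAi and 879 to 890.2 in WT. These markers of other organs differed between the lines on the same arrays as every group described below, and their part in those differences was not tested. The labels name inflorescence stems and do not say whether flowers or siliques were sampled with them. Secondary wall genes of the stem, such as the CESA7 cellulose synthase gene, were called present on all 9 arrays. In whole stems, fewer cells of a type and less RNA per cell cannot be told apart.

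**Figure D3:**
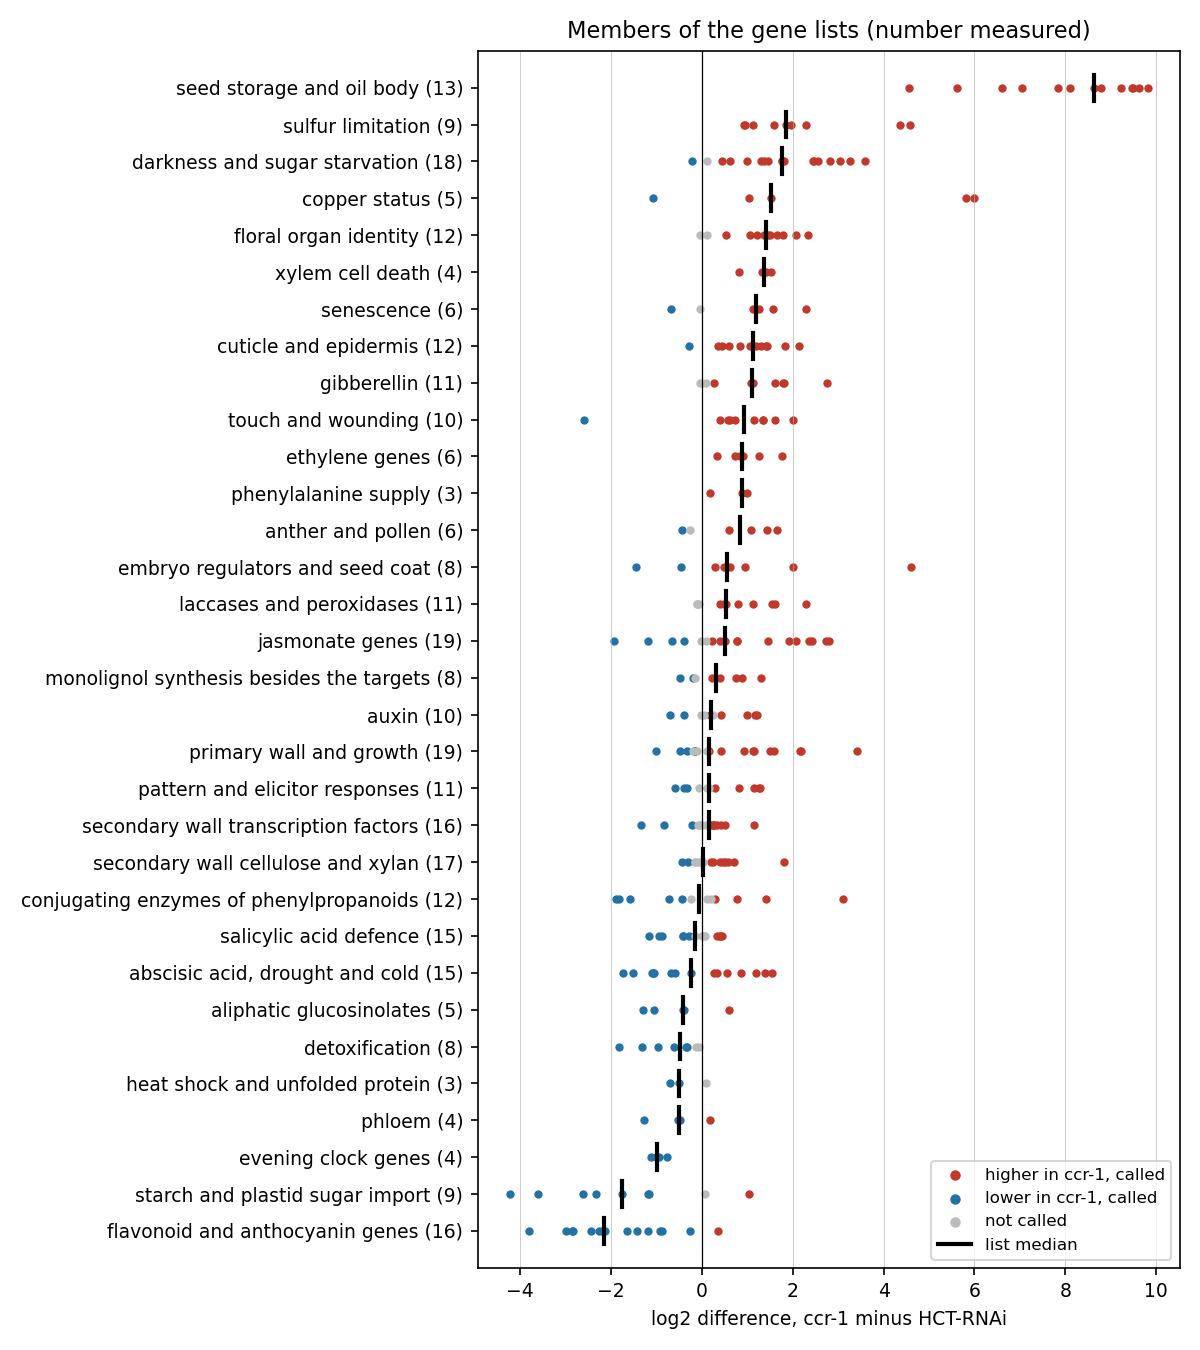
Log2 difference of ccr-1 minus HCT-RNAi for each measured member of the lists with at least 3 members (points), red where called higher, blue where called lower and grey where not called, with the list median as a black bar. Seed storage genes have a median of 8.64, sulfur genes of 1.85 and starvation genes of 1.77, while starch genes have -1.75 and flavonoid genes -2.15.

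Starch genes, which bank carbon in plastids and release it as maltose and glucose, were among the largest falls in ccr-1. Of 9 measured genes of starch and plastid sugar import, 7 were at least 2-fold lower and 1 was higher (median -1.75). GPT2 (AT1G61800), which imports glucose 6-phosphate into plastids, had 8.14, 8.31 and 8.32 in ccr-1, 12.44, 12.44 and 12.57 in HCT-RNAi and 5.04, 4.87 and 5.21 in WT, an 18.7-fold difference between the lines (-4.23 ± 0.09, limma adjusted p = 1.19e-12). Both lines lay above WT, and HCT-RNAi lay far above ccr-1. APL4, a large subunit of ADP-glucose pyrophosphorylase, the enzyme that commits glucose to starch, had 5.88, 6.02 and 5.84 in ccr-1, 9.45, 9.46 and 9.66 in HCT-RNAi and 4.84, 5.03 and 4.93 in WT (-3.61 ± 0.08, limma adjusted p = 1.88e-12). PHS2, a cytosolic glucan phosphorylase, had 8.87, 8.87 and 8.97 in ccr-1, 11.53, 11.49 and 11.54 in HCT-RNAi and 8.83, 8.90 and 8.79 in WT (-2.62 ± 0.06, limma adjusted p = 2.2e-12). For PHS2 the ccr-1 and WT arrays overlapped and only HCT-RNAi stood apart. APL3 fell by 2.33 and the granule-bound starch synthase gene GBSS1 by 1.75, whereas the sucrose synthase gene SUS1 was 1.05 ± 0.06 higher.

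Enzymes of starch breakdown and branching, a list added after their values were seen, were lower in ccr-1 in 13 of 13 cases, including 12 that passed 2-fold (median -1.91). ISA3 (AT4G09020), a debranching enzyme, had 6.68, 6.83 and 6.95 in ccr-1, 10.49, 10.44 and 10.37 in HCT-RNAi and 6.84, 6.83 and 6.92 in WT (-3.61 ± 0.07, limma adjusted p = 1.1e-12). SEX4, a phosphatase that opens the starch granule to attack, had 8.27, 8.38 and 8.38 in ccr-1, 11.05, 11.02 and 11.12 in HCT-RNAi and 8.21, 8.13 and 8.07 in WT (-2.72 ± 0.06, limma adjusted p = 2.71e-12). Enzymes acting on maltose and short glucans followed, with DPE2 at -2.33, DPE1 at -2.14 and the plastid phosphorylase PHS1 at -2.23. The maltose exporter MEX1 differed least, at -0.37 ± 0.05. Set beside WT, the list's median was 0.28 in ccr-1 and 2.62 in HCT-RNAi, and that of starch and plastid sugar import was 0.98 in ccr-1 and 2.61 in HCT-RNAi. Against WT, 5.23% of all probe sets were at least 2-fold higher and 3.71% lower in ccr-1, and 5.06% were higher and 5.79% lower in HCT-RNAi. These comparisons share the WT arrays, so the pairs of values are given side by side and no overlap between them is counted.

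Genes that darkness and lack of sugar induce moved opposite to the starch genes. Of 18 measured, 16 were higher in ccr-1, including 14 that passed 2-fold, and 1 was lower (median 1.77). DIN10 (AT5G20250), a raffinose synthase family gene induced in darkness, had 10.16, 10.16 and 10.22 in ccr-1, 6.86, 6.52 and 6.41 in HCT-RNAi and 11.11, 11.10 and 11.17 in WT (3.59 ± 0.09, limma adjusted p = 1.24e-11). BXL1, a beta-xylosidase gene, had 12.03, 12.10 and 12.20 in ccr-1, 9.10, 9.14 and 8.95 in HCT-RNAi and 12.33, 12.31 and 12.28 in WT (3.05 ± 0.07, limma adjusted p = 2.2e-12). For both genes ccr-1 lay below WT, and HCT-RNAi lay well below ccr-1. AT3G15450 (3.25 ± 0.12), BXL2 (2.81 ± 0.07) and BZIP1 (2.56 ± 0.07), a transcription factor of low energy, were also higher. MCCA, an enzyme of leucine breakdown, was at -0.22 ± 0.06. The median of the list was -0.64 in ccr-1 minus WT and -2.21 in HCT-RNAi minus WT.

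Clock genes differed on the same arrays. Of 7 listed evening genes 4 could be named, and all 4 were lower in ccr-1, with a median of -0.98. PRR5, called present on 1 of the 3 ccr-1 arrays, was -1.12 ± 0.14, ELF3 -1.01 ± 0.06, GI -0.95 ± 0.06 and ELF4 -0.78 ± 0.10. Of the 2 measured morning genes, RVE1 was 1.40 ± 0.06 higher and PRR7 was -1.23 ± 0.09. ELF3 had 6.10, 6.20 and 6.29 in ccr-1, 7.29, 7.20 and 7.14 in HCT-RNAi and 6.28, 6.29 and 6.26 in WT, so HCT-RNAi stood apart from both other groups. Starch and starvation genes are known to follow the time of day, and the part of the clock in their differences was not tested.

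**Figure D4:**
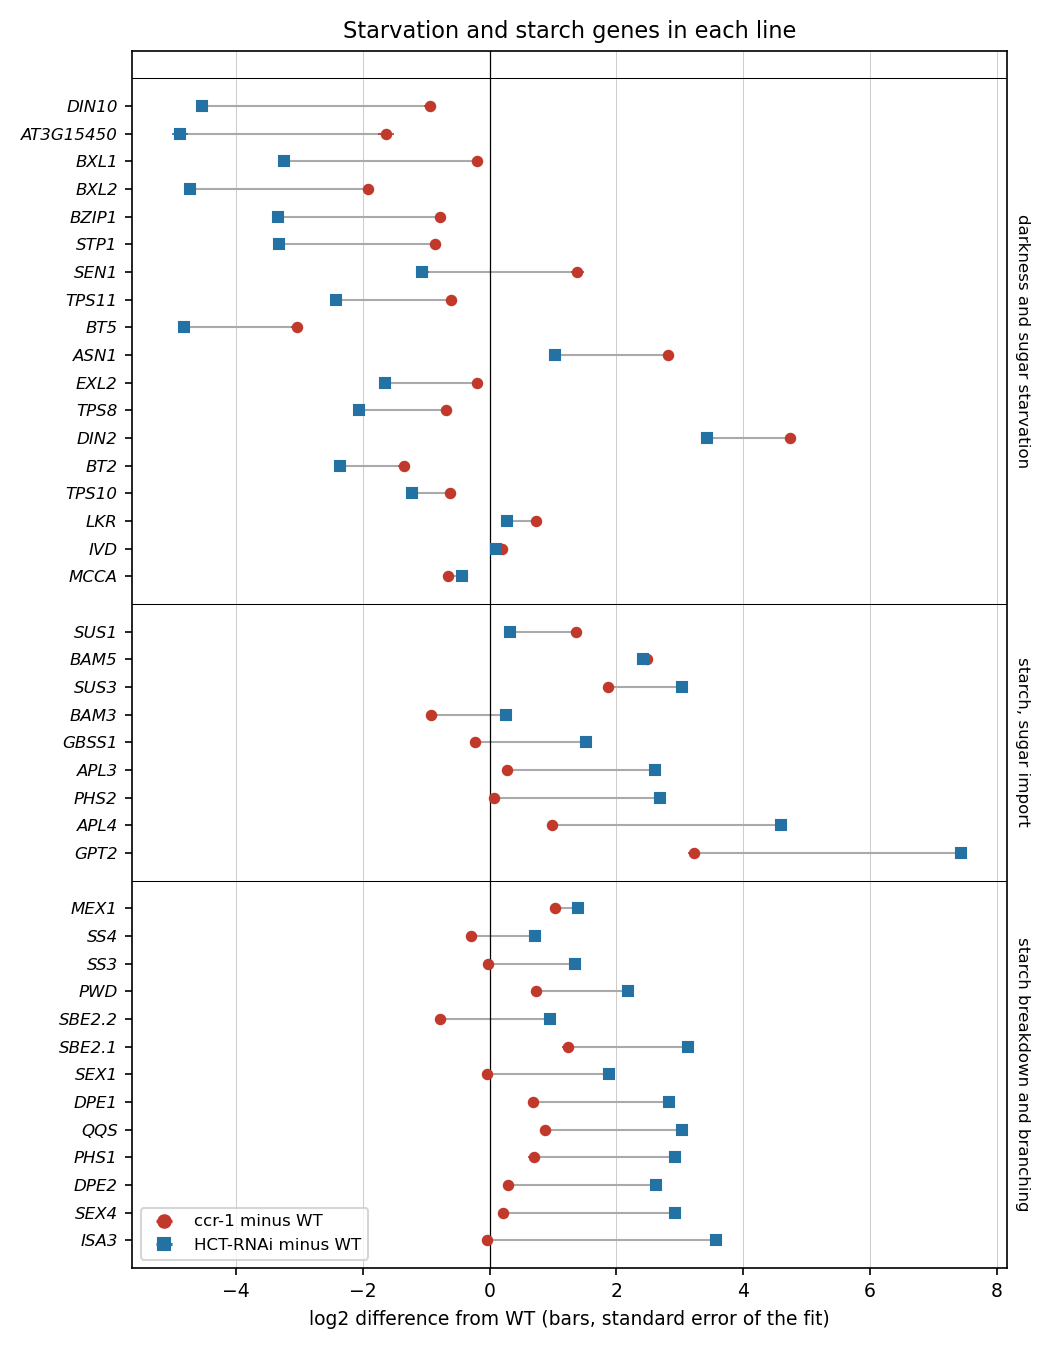
Log2 difference of each line from WT for genes of darkness and sugar starvation, of starch and plastid sugar import and of starch breakdown and branching, ccr-1 as red circles and HCT-RNAi as blue squares, with the standard error of the fit as bars. For most starvation genes ccr-1 lies right of HCT-RNAi, and for most starch genes it lies left, nearer to WT.

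Flavonoid and anthocyanin genes were lower in ccr-1 in 15 of 16 cases, including 12 that passed 2-fold (median -2.15). PAP2 (AT1G66390), a MYB activator of anthocyanin synthesis, had 6.53, 6.32 and 6.53 in ccr-1, 10.24, 10.19 and 10.36 in HCT-RNAi and 5.71, 5.93 and 6.13 in WT (-3.80 ± 0.10, limma adjusted p = 1.2e-11). UGT75C1, which adds glucose to anthocyanins, had 7.20, 7.28 and 7.38 in ccr-1, 10.28, 10.25 and 10.26 in HCT-RNAi and 6.62, 6.38 and 6.22 in WT (-2.98 ± 0.09, limma adjusted p = 3.94e-11). ccr-1 lay between WT and HCT-RNAi for both, nearer to WT. The malonyltransferase gene 5MAT (-2.85 ± 0.07), the glycosyltransferase gene UGT79B1 (-2.83 ± 0.10) and the transport gene TT19 (-2.44 ± 0.06) followed. FLS1, which diverts the pathway to flavonols, ran the other way at 0.35 ± 0.05 (limma adjusted p = 0.000122). The list's median was 1.53 in ccr-1 minus WT and 3.16 in HCT-RNAi minus WT.

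Enzymes that conjugate phenylpropanoids to sugars and esters divided, 4 higher and 5 lower of 12 measured, with a median of -0.06 that turned to 0.01 after median centring. UGT72E1, a glucosyltransferase of monolignols and their aldehydes, had 6.06, 5.85 and 5.80 in ccr-1, 7.73, 7.66 and 7.97 in HCT-RNAi and 4.98, 5.13 and 5.13 in WT (-1.88 ± 0.09, limma adjusted p = 3.35e-09). The sinapate glucosyltransferase UGT84A2 was -1.82 ± 0.10 and UGT72E2 -1.59 ± 0.08. The 2 rises of at least 2-fold were both in sinapoyltransferases: SNG2, which makes sinapoylcholine in seeds, was 3.12 ± 0.10 higher, and SNG1, which makes sinapoylmalate, was 1.41 ± 0.06 higher. Listed detoxification genes, chiefly glutathione transferases, were lower in 6 of 8 cases with a median of -0.47. They were led by GSTU4 (-1.82 ± 0.08), GSTU1 (-1.32 ± 0.13) and the cytochrome P450 gene CYP81D11 (-0.97 ± 0.06). The GSTU family as a whole was mixed, with 3 higher and 6 lower of 16 measured and a median of -0.12. GSTU26 (1.25 ± 0.11) and GSTU27 (1.11 ± 0.05), outside the list, were higher in ccr-1.

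Of 16 listed monolignol genes besides the 2 targets, 8 could be named, so the lignin pathway was covered only in part. Of these 8, 5 were higher and 2 lower in ccr-1, with a median of 0.31 and only PAL4 past 2-fold. The authors' table, whose median was 0.30, holds 7 of the 8. PAL4 (AT3G10340), a phenylalanine ammonia-lyase at the entry of the pathway, had 11.16, 11.17 and 11.36 in ccr-1, 9.78, 9.95 and 10.06 in HCT-RNAi and 12.13, 12.26 and 12.19 in WT (1.30 ± 0.08, limma adjusted p = 3.17e-08). PAL3 was 0.87 ± 0.07 higher, CYP98A3, the hydroxylase that acts on the product of HCT, 0.76 ± 0.06 and the esterase CSE, which acts after it, 0.40 ± 0.05. FAH1 (AT4G36220), the hydroxylase that leads to syringyl units, ran the other way, with 8.41, 8.37 and 8.23 in ccr-1, 8.75, 8.83 and 8.85 in HCT-RNAi and 9.84, 9.76 and 9.96 in WT (-0.48 ± 0.07, limma adjusted p = 6.74e-05). CCR2, the second cinnamoyl-CoA reductase gene, was at -0.19 ± 0.05. For PAL4 and FAH1 both lines lay below WT. Of 12 listed genes of phenylalanine supply 3 could be named. All 3 were higher in ccr-1, the arogenate dehydratases ADT4 by 1.00 and ADT5 by 0.87 and DHS3 by 0.19.

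Laccases and peroxidases, which oxidise monolignols in the wall, were higher in ccr-1 in 8 of 11 cases, with a median of 0.52. The authors' table, where 53.3% of probe sets were higher, holds 10 of the 11. PRX71 had 6.80, 6.93 and 6.78 in ccr-1, 4.57, 4.62 and 4.46 in HCT-RNAi and 8.02, 8.12 and 8.14 in WT (2.28 ± 0.07, limma adjusted p = 2.81e-11). LAC10 had 7.32, 7.32 and 7.07 in ccr-1, 5.72, 5.85 and 5.35 in HCT-RNAi and 8.34, 8.14 and 8.23 in WT (1.60 ± 0.12, limma adjusted p = 1.37e-07). PRX64, a peroxidase of lignifying cells, had 12.31, 12.33 and 12.44 in ccr-1, 10.86, 10.84 and 10.76 in HCT-RNAi and 13.36, 13.37 and 13.56 in WT (1.54 ± 0.07, limma adjusted p = 1.43e-09). ccr-1 lay between HCT-RNAi and WT for all 3 genes. LAC2, PRX52 and PRX72 differed by -0.10 ± 0.08, -0.10 ± 0.08 and -0.07 ± 0.09 and did not pass.

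Genes of secondary wall cellulose and xylan, the polysaccharides that lignin encrusts, differed little between the lines: 8 of 17 measured were higher and 2 lower in ccr-1, with a median of 0.03 that was -0.00 without HCT-RNAi replicate 3. All 17 were lower than WT in ccr-1, where 30.1% of all probe sets were lower, and in HCT-RNAi, where 27.7% were. The authors' table holds all 17. Of its 3783 probe sets, 1678 were lower than WT in ccr-1 and 1734 in HCT-RNAi. FLA12 (AT5G60490), a fasciclin-like arabinogalactan protein of fibre walls, was the exception in size, with 11.88, 11.86 and 11.86 in ccr-1, 9.99, 10.07 and 10.08 in HCT-RNAi and 13.19, 13.20 and 13.23 in WT (1.82 ± 0.05, limma adjusted p = 2.78e-11). PARVUS (0.70 ± 0.06), TBL3 (0.57 ± 0.06) and FRA8 (0.50 ± 0.06), which act on xylan, were higher by less than 2-fold. The cellulose synthase gene CESA4, with 10.56, 10.65 and 10.81 in ccr-1 and 10.90, 11.18 and 11.27 in HCT-RNAi, was -0.44 ± 0.11 (limma adjusted p = 0.00478), and GAUT12 was -0.31 ± 0.06. The other cellulose synthases of that wall did not pass, with CESA7 at -0.16 ± 0.07 and CESA8 at -0.15 ± 0.06.

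Transcription factors of the secondary wall included 8 higher and 3 lower of 16 measured, with a median of 0.15. MYB4, a repressor of phenylpropanoid genes, had 7.21, 7.12 and 6.79 in ccr-1, 8.40, 8.37 and 8.37 in HCT-RNAi and 7.84, 7.76 and 7.86 in WT, so the lines lay on opposite sides of WT (-1.34 ± 0.09, limma adjusted p = 7.41e-08). NST1, an activator of fibre walls, was -0.84 ± 0.14, with ccr-1 arrays at 6.20, 6.29 and 6.88 and HCT-RNAi arrays at 7.21, 7.28 and 7.39. MYB61 was 1.14 ± 0.06 and MYB20 0.51 ± 0.06 higher, and MYB85 was -0.22 ± 0.06.

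**Figure D5:**
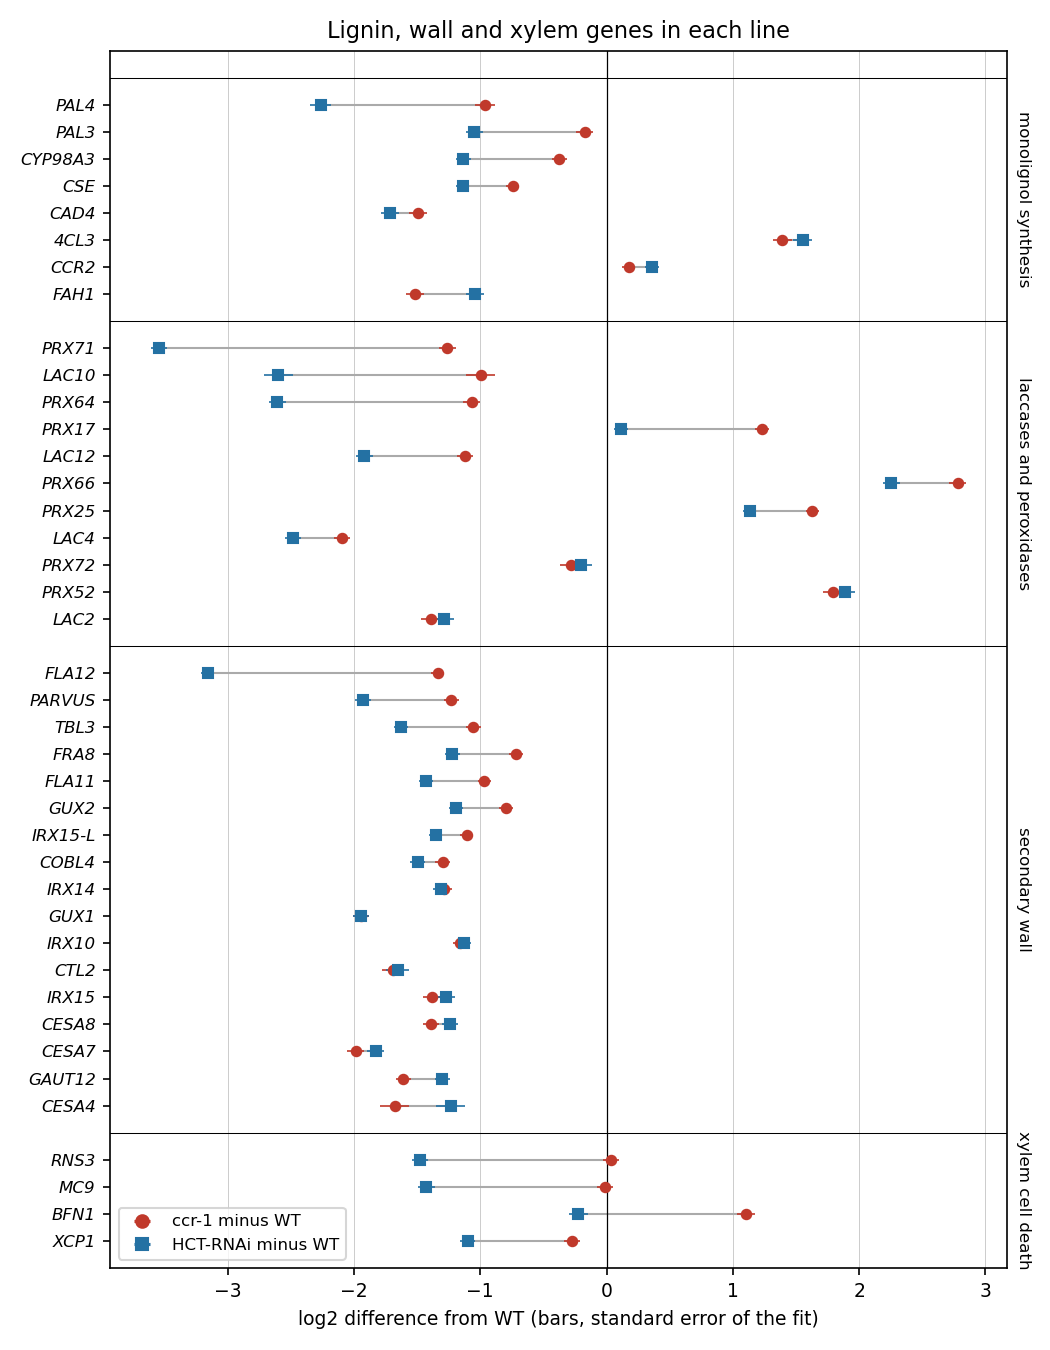
Log2 difference of each line from WT for genes of monolignol synthesis, laccases and peroxidases, secondary wall cellulose and xylan, and xylem cell death, ccr-1 as red circles and HCT-RNAi as blue squares, with the standard error of the fit as bars. The cellulose and xylan genes lie left of 0 in both lines, with FLA12 the widest apart, and the 4 xylem cell death genes lie further right in ccr-1.

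Xylem cell death genes, which empty vessels and fibres of their contents, were higher in ccr-1 in 4 of 4 cases with a median of 1.37. RNS3, a ribonuclease, had 10.33, 10.39 and 10.46 in ccr-1, 8.96, 8.89 and 8.79 in HCT-RNAi and 10.28, 10.37 and 10.42 in WT (1.51 ± 0.06, limma adjusted p = 9.48e-10). The metacaspase gene MC9 had 8.57, 8.64 and 8.53 in ccr-1, 7.24, 7.15 and 7.11 in HCT-RNAi and 8.50, 8.59 and 8.70 in WT (1.41 ± 0.06, limma adjusted p = 2.07e-09). The ccr-1 and WT arrays overlapped for both genes, and HCT-RNAi lay below. BFN1 was 1.33 ± 0.07 and the protease gene XCP1 0.83 ± 0.06 higher. In the dehiscence list ADPG1 was 1.37 ± 0.08 and ALC 0.34 ± 0.06 higher in ccr-1.

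Primary wall and growth genes, which let cells expand, were higher in 10 and lower in 6 of 19 measured, with a median of 0.17. The authors' table holds 18 of the 19, and these counts are close to its shares of 53.3% higher and 36.7% lower. EXPA8 (AT2G40610), an expansin that loosens walls, had 10.04, 10.12 and 10.18 in ccr-1, 6.58, 6.69 and 6.82 in HCT-RNAi and 8.29, 8.35 and 8.22 in WT (3.41 ± 0.07, limma adjusted p = 1.51e-12). Its ccr-1 arrays lay above WT and its HCT-RNAi arrays below. XTH15 (2.18 ± 0.09), XTH4 (2.16 ± 0.06) and XTH24 (1.49 ± 0.05), which cut and rejoin xyloglucan, and the expansin gene EXPA5 (1.59 ± 0.06) were higher too. The expansin gene EXPA4 fell by 1.00 ± 0.06, EXPA10 was -0.49 ± 0.06, and the cellulose synthases of the primary wall CESA3, CESA6 and CESA5 were -0.32, -0.16 and -0.15.

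The AGP, FLA and XTH families of wall genes were picked out by symbol after their values were seen, for being mostly higher in ccr-1, and other wall families were mixed. Of 14 measured EXPA genes, the expansins, 5 were higher and 3 lower (median 0.12), and of 23 measured TBL genes, which acetylate wall polymers, 12 were higher and 6 lower (median 0.19). All 19 measured AGP genes, which encode arabinogalactan proteins, were higher, including 17 that passed 2-fold (median 1.43). They include AGP6 and AGP11, also counted above among genes of anthers and pollen. AGP14 was 3.04, AGP22 2.72 and AGP17 2.67 higher. The 12 measured FLA genes were also all higher, with a median of 1.13, FLA9 leading at 2.57. Of 22 measured XTH genes 17 were higher and 1 lower, with a median of 1.58. XTH19 was 3.14, XTH3 3.01 and XTH30 2.97 higher, while XTH31 (AT3G44990) had 7.45, 7.39 and 7.63 in ccr-1, 11.47, 11.46 and 11.30 in HCT-RNAi and 7.96, 7.89 and 7.83 in WT (-3.92 ± 0.07, limma adjusted p = 8.01e-13). For XTH31 the HCT-RNAi arrays were the ones apart. The authors' table holds all 19 AGP, all 12 FLA and 19 of the 22 XTH probe sets, so their shares inherit its selection. Within it 53.3% of probe sets were higher and 36.7% lower. These shares varied with gene length (last paragraph), which was not examined for the families. Members left unnamed because that table does not hold them are not counted, so the counts cannot stand for whole families.

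Genes that respond to copper and sulfur supply also differed widely. Of 5 measured copper genes, 4 were higher in ccr-1 and 1 lower, with a median of 1.53. FSD1 (AT4G25100), the iron superoxide dismutase that plants make when copper is scarce, had 11.56, 11.56 and 11.62 in ccr-1, 5.65, 5.54 and 5.58 in HCT-RNAi and 8.14, 8.30 and 8.14 in WT, a 63.7-fold difference (5.99 ± 0.06, limma adjusted p = 1.7e-15). The ccr-1 arrays lay above WT and the HCT-RNAi arrays below, with wide gaps on both sides. ATX1 (AT1G66240), a copper chaperone gene, had 11.85, 11.83 and 11.80 in ccr-1, 6.02, 6.02 and 5.99 in HCT-RNAi and 11.84, 11.82 and 11.92 in WT. It was called absent on all HCT-RNAi arrays, so it was at least 56.4-fold higher in ccr-1 (limma adjusted p = 5.23e-16). Only HCT-RNAi departed from WT there. The copper transporter gene COPT2, absent on all HCT-RNAi arrays, was at least 2.89-fold higher, the chaperone gene CCH was 1.05 ± 0.06 higher, and CCS, the copper chaperone of copper/zinc superoxide dismutase, was -1.08 ± 0.05.

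All 9 measured genes of sulfur limitation were higher in ccr-1, including 7 that passed 2-fold (median 1.85). SDI1 (AT5G48850), which curbs glucosinolate synthesis when sulfur is short, had 10.82, 10.93 and 10.83 in ccr-1, 6.22, 6.32 and 6.30 in HCT-RNAi and 8.18, 8.09 and 8.18 in WT (4.58 ± 0.06, limma adjusted p = 1.36e-14). LSU1, a marker of low sulfur, had 10.79, 10.64 and 10.78 in ccr-1, 6.43, 6.30 and 6.42 in HCT-RNAi and 6.31, 6.40 and 6.23 in WT (4.35 ± 0.07, limma adjusted p = 1.14e-13). For SDI1 the lines lay on opposite sides of WT, while for LSU1 HCT-RNAi overlapped WT. The glucosidase gene BGLU28 was 2.28 ± 0.10, the sulfate transporter gene SULTR1;2 1.97 ± 0.08 and GGCT2;1, which recycles glutathione, 1.85 ± 0.08 higher. The list's median was 1.32 in ccr-1 minus WT and -0.73 in HCT-RNAi minus WT. Of 16 listed genes of aliphatic glucosinolates, which are rich in sulfur, 5 could be named. Of these 5, 4 were lower in ccr-1, among them the activator MYB29 (-1.30 ± 0.06) and AOP2 (-1.06 ± 0.07), and MAM3 was 0.59 ± 0.08 higher.

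Jasmonate genes were higher in ccr-1 in 13 of 19 cases and lower in 4, with a median of 0.50. The authors' table holds 18 of the 19, and within it 53.3% of probe sets were higher and 36.7% lower. CYP94B3, which inactivates the hormone, had 8.61, 8.87 and 8.73 in ccr-1, 5.85, 5.96 and 6.02 in HCT-RNAi and 8.68, 8.57 and 8.53 in WT (2.79 ± 0.08, limma adjusted p = 1.72e-11). The ccr-1 arrays overlapped WT and the HCT-RNAi arrays lay below. The repressor genes JAZ7 (2.74 ± 0.08), JAZ10 (2.42 ± 0.06) and JAZ8 (2.36 ± 0.11) and the lipoxygenase gene LOX3 (2.07 ± 0.06) were higher as well. CORI3 ran the other way, with 10.30, 10.30 and 10.30 in ccr-1, 12.25, 12.18 and 12.27 in HCT-RNAi and 4.57, 4.93 and 5.06 in WT (-1.93 ± 0.10, limma adjusted p = 5.59e-09), and so did TAT3 (-1.18 ± 0.13), the lipoxygenase gene LOX2 (-0.66 ± 0.07) and the activator MYC2 (-0.39 ± 0.06).

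Ethylene and touch genes mostly stood higher in ccr-1. All 6 measured ethylene genes were higher, with a median of 0.88, led by EBF2, which removes the pathway's master activator (1.77 ± 0.08), and the chitinase gene CHI-B (1.27 ± 0.05). All 10 measured ERF genes, a family picked out after its values were seen, were higher with a median of 1.08. All 10, like the 6 ethylene genes and the 10 touch and wounding genes, lie in the authors' table, where 53.3% of probe sets were higher. Of 10 touch and wounding genes, 9 were higher and 1 lower, with a median of 0.94. TCH4, a xyloglucan enzyme gene induced by touch, had 10.13, 10.24 and 10.16 in ccr-1, 8.19, 8.14 and 8.20 in HCT-RNAi and 10.99, 11.01 and 11.10 in WT (2.00 ± 0.06, limma adjusted p = 2.39e-11). CBF3, a regulator of cold responses, was the member that ran the other way, with 5.07, 5.14 and 5.36 in ccr-1, 7.61, 7.90 and 7.82 in HCT-RNAi and 5.27, 5.34 and 5.03 in WT (-2.59 ± 0.10, limma adjusted p = 5.35e-10). TCH4 was below WT in both lines, more so in HCT-RNAi, and CBF3 was above WT in HCT-RNAi while its ccr-1 and WT arrays overlapped.

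Gibberellin genes were higher in ccr-1 in 8 of 11 cases, with a median of 1.11. All 11 lie in the authors' table, where 53.3% of probe sets were higher and 36.7% lower. GASA1, which gibberellin induces, had 10.26, 10.22 and 10.21 in ccr-1, 7.59, 7.38 and 7.47 in HCT-RNAi and 9.64, 9.58 and 9.67 in WT, again on opposite sides of WT (2.75 ± 0.06, limma adjusted p = 3.13e-12). The DELLA repressor gene RGL1 was 1.80 ± 0.06, the synthesis gene GA20OX2 1.78 ± 0.07 and GASA6 1.62 ± 0.08 higher. Auxin genes divided, 5 higher and 2 lower of 10, with a median of 0.21, between IAA19 (1.23 ± 0.06) and IAA3 (-0.69 ± 0.07). Of 6 senescence genes 4 were higher and 1 lower, with a median of 1.19, among them the ribonuclease gene RNS1 (2.29 ± 0.09), the regulator ORE1 (1.56 ± 0.06) and the protease gene SAG12 (1.25 ± 0.09), against SAG13 at -0.69 ± 0.07. All 6 senescence genes lie in the authors' table too.

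Stress and defence lists had no common direction. Abscisic acid, drought and cold genes included 7 higher and 8 lower of 15, with a median of -0.23. RD29A was -1.72 ± 0.08 and COR15A -1.51 ± 0.06, whereas COR47 was 1.55 ± 0.06, the phosphatase gene HAI1 1.40 ± 0.06 and EM6, a seed protein gene absent on all HCT-RNAi arrays, at least 2.29-fold higher. In the salicylic acid list 4 were higher and 7 lower of 15, with a median of -0.15: the synthesis gene ICS1 was -1.16 ± 0.10, PR1 -0.94 ± 0.09 and PR2 -0.88 ± 0.10, while NPR3 was 0.46 ± 0.08 and WRKY70 0.41 ± 0.07 higher. PR1 had 7.34, 7.27 and 7.17 in ccr-1, 8.16, 8.31 and 8.13 in HCT-RNAi and 8.49, 8.18 and 8.13 in WT, so ccr-1 lay below both other groups. Of 11 pattern and elicitor genes 5 were higher and 3 lower, with a median of 0.16. PGIP2 (1.29 ± 0.07), WRKY40 (1.25 ± 0.08), WRKY18 (1.15 ± 0.08) and the flagellin receptor gene FLS2 (0.81 ± 0.10) were higher, and the oxidase gene RBOHD was -0.59 ± 0.06. Of 3 heat genes 2 were lower, HSP90.1 at -0.70 ± 0.07 and MBF1C at -0.51 ± 0.08.

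Genes of the cuticle and epidermis were higher in ccr-1 in 11 of 12 cases, including 7 that passed 2-fold (median 1.13). MAH1, which hydroxylates the alkanes of stem wax, had 11.18, 11.16 and 11.20 in ccr-1, 9.02, 9.07 and 9.07 in HCT-RNAi and 11.77, 11.78 and 11.83 in WT (2.13 ± 0.05, limma adjusted p = 5.27e-12). The wax genes CER4 (1.84 ± 0.06), CER1 (1.43 ± 0.06) and CER2 (1.41 ± 0.08) and the lipid transfer protein gene LTP2 (1.31 ± 0.06) followed, and FAR6, absent on all ccr-1 arrays, was at least 1.22-fold lower. The summed linear intensity of the list was 37521 to 37955 in ccr-1, 20147 to 20648 in HCT-RNAi and 20124 to 20485 in WT, in which a few bright genes such as LTP2 weigh most. Member by member the picture differed: the list's median was 0.29 in ccr-1 minus WT, with 7 members higher and 2 lower, and -1.02 in HCT-RNAi minus WT, with 5 higher and 7 lower. The authors' table holds all 12 members. Of its 3783 probe sets, 1832 were higher and 1678 lower than WT in ccr-1. In HCT-RNAi 1747 were higher and 1734 lower than WT. All 10 measured KCS genes, a family of fatty acid elongases picked out after its values were seen, were higher with a median of 1.30, FAE1 of seed oil leading and KCS12 at 1.85. They too all lie in the authors' table, where 53.3% of probe sets were higher, and inherit its selection. Of 4 phloem markers 3 were lower, the identity gene APL at -1.27 ± 0.07, NaKR1 at -0.53 ± 0.06 and SEOR1 at -0.49 ± 0.06, while the sucrose exporter gene SWEET11 was 0.18 ± 0.06 higher. The Rubisco activase gene RCA was 0.31 ± 0.05 higher and SBPASE differed by -0.08 ± 0.06 without passing. MCM7, the only gene of 14 listed for cell division that could be named, was at 0.03 ± 0.07 and did not pass.

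Other genes among the 20 largest falls had no list of their own. NATA1, an acetyltransferase induced by jasmonate, had 6.61, 6.74 and 6.68 in ccr-1, 10.09, 10.00 and 10.08 in HCT-RNAi and 6.10, 6.11 and 5.96 in WT (-3.38 ± 0.06, limma adjusted p = 5.88e-13). AT4G34950 had 8.50, 8.45 and 8.55 in ccr-1, 11.81, 11.84 and 11.85 in HCT-RNAi and 9.67, 9.69 and 9.67 in WT (-3.33 ± 0.05, limma adjusted p = 1.14e-13). NRAMP1, a manganese and iron transporter gene, had 7.67, 7.68 and 7.46 in ccr-1, 10.21, 10.21 and 10.27 in HCT-RNAi and 9.92, 9.92 and 9.93 in WT (-2.63 ± 0.06, limma adjusted p = 7.17e-12). The 3 genes differ in where WT lies: near ccr-1 for NATA1, between the lines for AT4G34950 and near HCT-RNAi for NRAMP1. AT1G56300 (-3.56 ± 0.07), the ATPase gene DAA1 (-3.23 ± 0.09), AT1G27030 (-2.87 ± 0.06), AT2G47880 (-2.67 ± 0.09), AT4G22490 (-2.62 ± 0.11) and the plastid envelope gene OEP6 (-2.61 ± 0.07) completed the falls outside the lists, with AT4G16870 at -2.69 ± 0.06.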

How the data were processed

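RNA of inflorescence stems was measured on 9 ATH1 arrays, 3 each of ccr-1, HCT-RNAi and WT, grouped by the labels. The deposited intensity values are linear, 1 for each of 22810 probe sets and array, and were made by the authors with RMA, with MAS5 also named, per the submitters' processing notes, their versions and genome build being not given in the sources used here. Next, the authors' deposited table repeats these intensities for 3783 non-control probe sets chosen by fold change, with detection calls (present, marginal or absent), the ratio of group means and a category for each comparison. No column was left unmapped to a sample.

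The 64 control probe sets were removed and log2 was taken, since the values proved linear where log2 values had been planned for. Group means of all 9 arrays were fitted with limma 3.58.1 in R 4.3.3, sharing one estimate of the spread, and p-values of ccr-1 minus HCT-RNAi were adjusted by Benjamini-Hochberg over 22746 probe sets. A call is an adjusted p under 0.05. Array data carry no read depth, so the number of arrays limits the precision.

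Names came from the platform annotation (13129 probe sets) or the authors' table (1755). The platform annotation did not list 8730 probe sets, and these could be named only where the authors' table held them. Probe sets that match several genes by their suffix (1061) or whose sources differ (31) were not named, which left 14884 probe sets for 14754 genes. A gene with several probe sets is given by the brightest. The genes named are the 2 targets, the 20 largest rises and 20 largest falls without overlap between the lines, up to 5 called members with the largest difference in each list, and members that run against the list's median; other genes, and the families, were chosen after their values were seen. The members and lists were chosen with earlier results of these data known. Alternatives were the 6 arrays alone, median centring, quantile normalization, removal of the dimmest 0.25 of probe sets, an intensity trend, an equal-variance test on linear intensities, and leaving out each array. The fit was tested on simulated data. Promoter sequences were not analysed here.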

Additional observations from a re-analysis of the deposited data

Results flagged for a closer look

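For 19 genes the 2 lines departed from WT by at least 2-fold in opposite directions, both called, in limma. Both departures use the same WT arrays, and choosing genes this way fixes a large direct difference between the lines, so the direct differences are given as a description, with no test. ccr-1 was the higher line for 17 of them and the lower line for 2.

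FSD1, the iron superoxide dismutase, differed by 5.99 (log2, ccr-1 minus HCT-RNAi), with 3.38 in ccr-1 minus WT and -2.61 in HCT-RNAi minus WT. SDI1, of sulfur limitation, differed by 4.58, with 2.71 in ccr-1 and -1.87 in HCT-RNAi against WT. Wall genes were among them: the expansin gene EXPA8 differed by 3.41 (1.82 in ccr-1 and -1.59 in HCT-RNAi against WT), and the arabinogalactan protein genes AGP14 by 3.04 and AGP17 by 2.67. ZFP2, a zinc finger gene, differed by 2.86, the growth regulator gene PRE1 by 2.39, SEN1, which darkness induces, by 2.45, and MSRB6, a methionine sulfoxide reductase gene, by 2.12. Loci given without a name were AT1G12080 at 3.54, AT1G12010 at 2.89, AT4G33960 at 2.88, AT2G23540 at 2.87, AT2G27830 at 2.49, AT5G39890 at 2.47, AT2G14900 at 2.26 and AT4G18425 at 2.14.

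The 2 genes that ran the other way were AT4G34950 at -3.33, with -1.18 in ccr-1 and 2.15 in HCT-RNAi against WT, and AT4G16870 at -2.69, with -1.68 in ccr-1 and 1.01 in HCT-RNAi against WT.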

How the results depend on the processing

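The 2 target genes kept their direction and call under all 15 alternatives, and the counts of calls and of 2-fold differences stayed within 1.5 times their value. With each array left out in turn, calls ranged from 12374 to 13375 and 2-fold calls from 1731 to 1836, HCT differed by 2.95 to 3.00 and CCR1 by -1.10 to -1.02. The equal-variance test gave 11251 calls and median centring 13968. Centring turned the balance of calls, with 7510 higher and 6458 lower (53.8% higher) in place of 5773 higher and 7633 lower (43.1% higher). Of 221 results for named genes, 209 kept their call throughout and 12 lost it in some setting, none with a difference above 0.44 in size: A9, CESA4, CESA5, CESA6, CCR2, DHS3, EFR, EXPA15, GSTU24, MCCA, MYB85 and SWEET11. Of 43 list and family medians, 3 changed sign: conjugating enzymes from -0.06 to 0.01 under centring, 0.03 without replicate 3 and 0.01 without replicate 5, secondary wall genes from 0.03 to -0.00 without replicate 3, and the single cell division gene from 0.03 to -0.03 without replicate 3 and -0.02 without replicate 6; the cause was not tested. More medians shifted in size alone: 24 of the 43 were flagged as moved under median centring and 10 under quantile normalization. No flagged median changed sign, and the sign changes above were too small to be flagged. The XTH median, for instance, ranged from 1.535 to 1.80 over the alternatives. No paired analysis was possible because the replicate numbers in the labels, 1 to 9, never repeat across groups. The arrays' small number, 3 in a group, and dim probe sets limit what small differences show.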

Other observations

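Further groups of genes that share the letters of a symbol, picked out after their values were seen, ran lower in ccr-1. The EMB genes, which are needed for embryo development, were grouped by name alone and are not treated as a protein family. Of 14 measured, 13 were lower, including 12 that passed 2-fold (median -1.11), with EMB3012 at -1.47. Set beside WT, their median was -0.29 in ccr-1 and 0.76 in HCT-RNAi. Of 9 measured CHR genes, which encode chromatin remodelling factors, 7 were lower and 1 higher, with a median of -0.81 and CHR42 at -1.59. SWEET genes, which export sugars from cells, ran the other way: 12 of 14 were higher and 1 lower, with a median of 0.79, SWEET9 at 2.46 and SWEET7 at 2.31. The authors' table, selected by fold change, holds 13 of the EMB, 4 of the CHR and 12 of the SWEET probe sets. Within it 36.7% of probe sets were lower in ccr-1 and 53.3% higher. These shares varied with gene length (next paragraph), which was not examined for the groups. Unchanged members may have gone unnamed, so these counts cannot stand for whole groups.

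Differences between the lines also varied with the length of the gene as RefSeq spans it. Among named genes outside the authors' table, cut by length into 5 classes, the shortest class (87 to 1284 bases, 2223 genes) had a median of 0.07, with 24.7% higher and 6.75% lower in ccr-1. The longest class (3359 to 27265 bases, 2152 genes) had a median of -0.20, with 8.36% higher and 52.2% lower. The classes between had medians of 0.04, -0.02 and -0.09 in order of length. Among genes in the authors' table, which holds most list members, the range was wider. There the shortest class (714 genes) had a median of 0.90, with 75.5% higher and 16.9% lower in ccr-1. The longest class (778 genes) had a median of -0.53, with 27.9% higher and 60.0% lower. Over the same arrays the actin signal from the 3' end exceeded that from the 5' end by 3.86 ± 0.04 in ccr-1 and 4.36 ± 0.015 in HCT-RNAi (log2, SD, n = 3), the GAPDH signal by 1.61 ± 0.05 in ccr-1 and 1.78 ± 0.12 in HCT-RNAi, and the ubiquitin signal by 1.25 ± 0.06 in ccr-1 and 1.30 ± 0.04 in HCT-RNAi. Their part in the relation to length was not tested.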
